A study of Mus musculus with 19 samples.

Results

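The expression of 10 genes of the vascular endothelial growth factor (VEGF) pathway and of endothelial cells was described in 6 RNA-seq libraries of sorted retinal cells from mouse embryos at E16.5 (embryonic day). The genes were the ligands Vegfa, Vegfb and Vegfc, the receptor tyrosine kinases Flt1, Kdr and Tek, and the surface proteins Pecam1, Cdh5, Cd34 and Adgrf5. They are 10 of the 47069 genes in the count files and were found by their Ensembl gene IDs. The list was chosen by a rule drawn up with measured values of the same contrast already known, so every value of these 10 genes is a description and carries no test.

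The 3 libraries called iRGC were made from GFP-positive cells of embryos carrying a Slc6a4-Cre transgene, and stood in the study for ipsilateral retinal ganglion cells, whose axons stay on their own side of the brain. The 3 libraries called cRGC came from embryos with a Pou4f2-Cre allele, from retinas whose ventrotemporal region had been removed, and stood for contralateral retinal ganglion cells. All embryos also carried a Sun1-GFP cassette in Rosa26 that Cre switches on, and all were on a mixed C57 and DBA background, with both sexes pooled. GFP marks any cell in which Cre has been active, whatever it is at the time of sorting, and no Cre line restricted to cRGCs was used. The libraries held between 28193178 and 33638083 reads on genes. Levels are given as counts per 1000000 reads on genes (CPM) after scaling by TMM, a correction for library composition.

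Slc6a4, the serotonin transporter that drives Cre in the iRGC embryos, did not separate the populations. Its level was 2.06, 33.4 and 116 CPM in iRGC replicates 1 to 3, against 48.1, 35.4 and 30.5 CPM in the cRGC libraries. The library labelled iRGC replicate 1 therefore lay below all cRGC libraries. Zic2, the transcription factor of the ipsilateral program, was above all cRGC libraries in every iRGC library, at 134, 173 and 157 CPM against 57.0, 60.2 and 65.7 CPM. Pou4f2, the gene of the other driver, was lower, at 74.8, 134 and 98.3 CPM against 191, 196 and 293 CPM. Sun1, the gene fused to GFP in the reporter, was also lower in iRGCs, at 99.0, 120 and 153 CPM against 391, 271 and 384 CPM.

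The defining genes of retinal ganglion cells were present in both populations at unequal levels. A gene was called at an adjusted p under 0.1 in edgeR's quasi-likelihood test, which called 23.3% of all fitted genes higher in iRGCs and 23.1% lower. Of 16 ganglion cell genes, 15 were called lower and none higher, and their summed level was 3369, 4617 and 6862 CPM in iRGCs against 17350, 15740 and 19180 CPM in cRGCs. Tubb3, a neuronal tubulin and the most abundant of the list, fell by 1.63 on the log2 scale (SE 0.20, adjusted p = 0.000425). Of 16 retinal progenitor genes, 15 were called higher in iRGCs and none lower. Their sum was 10720, 9521 and 8343 CPM in iRGCs and 1324, 2714 and 2094 CPM in cRGCs, and Ccnd1, a cyclin of dividing progenitors that shares 23.4% of its exon bases with LTO1, was the most abundant. The part of this difference in the results below was not tested. In bulk libraries, fewer cells of a type and less RNA per cell cannot be told apart.

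VEGF-A is secreted by neural and glial cells and acts on endothelial cells mainly through KDR, the main signalling receptor, while FLT1 binds the same ligand tightly and limits it, in part as a soluble form. VEGF-B binds FLT1, and VEGF-C acts mainly through FLT4 on lymphatic endothelium. TEK is the receptor of the angiopoietins, and PECAM1 and VE-cadherin, the product of Cdh5, hold endothelial cells together. CD34 is a sialomucin of endothelial and blood-forming cells, and ADGRF5 is an adhesion receptor found in endothelium. In the mouse embryo the vessels of the eye are mainly those of the hyaloid system and the choroid, and KDR is also known from neural progenitors of the retina.

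The 10 genes fell into 3 kinds of profile across the libraries. The ligands were at similar levels in both populations. Kdr was high in all 3 iRGC libraries and 4.34-fold higher than in cRGCs. The other 6 genes were highest in iRGC replicate 2, lower in iRGC replicate 1, and at 2.59 CPM or less in iRGC replicate 3 and at 1.15 CPM or less in the cRGC libraries.

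**Figure D1:**
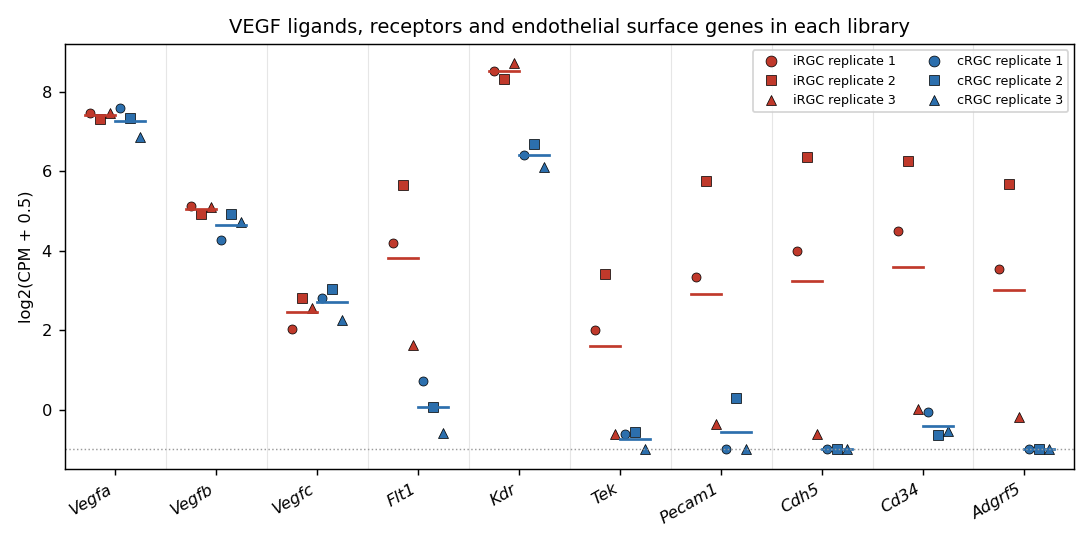
The vertical axis gives log2(CPM + 0.5) of the 10 genes, 1 point per library, with the mean of each population as a line and 0 CPM as the dotted line. The red points of Kdr lie together above the blue ones, while those of Flt1, Tek, Pecam1, Cdh5, Cd34 and Adgrf5 spread from iRGC replicate 2 at the top to iRGC replicate 3 near the cRGC points.

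Kdr and Flt1, paralogous receptors for the same ligand, had different profiles, and both lie on chromosome 5. Kdr (ENSMUSG00000062960) spans chr5:75932827-75978458 and Flt1 (ENSMUSG00000029648) spans chr5:147561604-147726011, both on the minus strand of GRCm38, and neither shares exon bases with another annotated gene. Their promoter windows are printed because the levels of this pair diverged in the same libraries. Each window runs from 250 bases before to 50 bases after the RefSeq start on GRCm38.p6, minus strand, at chr5:75978406-75978705 for Kdr and chr5:147725962-147726261 for Flt1. Capitals mark GGAAG, the core letters of ETS factor sites, on either strand, so that CTTCC also counts.

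Kdr: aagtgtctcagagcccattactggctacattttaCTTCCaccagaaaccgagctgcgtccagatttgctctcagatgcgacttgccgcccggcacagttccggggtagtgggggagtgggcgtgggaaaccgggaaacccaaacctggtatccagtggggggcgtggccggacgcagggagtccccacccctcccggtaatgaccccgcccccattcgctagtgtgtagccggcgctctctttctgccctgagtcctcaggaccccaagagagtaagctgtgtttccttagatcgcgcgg

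Flt1: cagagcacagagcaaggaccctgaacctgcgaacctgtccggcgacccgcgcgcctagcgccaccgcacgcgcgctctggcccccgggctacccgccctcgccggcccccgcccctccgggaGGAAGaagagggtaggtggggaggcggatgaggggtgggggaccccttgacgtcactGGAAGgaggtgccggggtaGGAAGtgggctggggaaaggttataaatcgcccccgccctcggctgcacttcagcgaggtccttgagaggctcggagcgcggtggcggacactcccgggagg

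The Flt1 window held 3 matches, at 128, 71 and 52 bases before the start, and the Kdr window held 1, at 216 bases before it. Of 32851 RefSeq windows of this length, a count that leaves out chromosome 18, 71.4% held at least 1 such match. Windows were found for 8 of the 10 genes. The windows of Vegfb, Vegfc and Tek held no GGAAG, and that of Cd34 held 1. Vegfa and Adgrf5 had 2 windows each, with 1 and 2 matches for Vegfa and 5 and 2 for Adgrf5. TAATTA, letters bound by many homeodomain factors and present in 5.29% of the 32851 windows, was in no window of these genes. ACGTG, the core letters of HIF sites and present in 19.6% of windows, was in 1 of the Vegfa windows. Both strands were searched in each case, and none of the 3 motifs contains another. A match is a description of the letters in a window and not evidence of binding.

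Vegfa was the most abundant ligand. Its level was 176, 157 and 174 CPM in iRGC replicates 1 to 3 and 193, 162 and 116 CPM in cRGC replicates 1 to 3. The populations overlapped, since cRGC replicate 1 was the highest library and cRGC replicate 3 the lowest. The log2 fold change of iRGC over cRGC was 0.11 (SE 0.17, n = 3 per population). It was -0.061 without cRGC replicate 3.

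Vegfb was at 34.2, 29.6 and 33.5 CPM in iRGCs and at 18.7, 29.9 and 25.7 CPM in cRGCs. cRGC replicate 1 was the lowest library, and cRGC replicate 2 lay within the iRGC range. The log2 fold change was 0.39 (SE 0.19).

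Vegfc was a low gene, at 3.57, 6.52 and 5.39 CPM in iRGCs and 6.50, 7.66 and 4.29 CPM in cRGCs. The ranges overlapped, with iRGC replicate 1 below and cRGC replicate 2 above the range of the other population, and the log2 fold change was -0.25 (SE 0.38). For all 3 ligands the populations overlapped. iRGC replicate 2, the library in which the endothelial genes peaked, was the lowest iRGC library for Vegfa and Vegfb and the highest for Vegfc.

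Kdr was at 366, 321 and 418 CPM in iRGCs and at 83.7, 103 and 67.6 CPM in cRGCs. No library of one population lay within the range of the other. Its log2 fold change was 2.12 (SE 0.17), and the means were 368 ± 48.9 and 84.8 ± 17.7 CPM (SD, n = 3 each). With 1 library left out at a time the log2 fold change ran from 1.98 to 2.30. The highest level was in iRGC replicate 3, in which Flt1, Tek, Pecam1, Cdh5, Cd34 and Adgrf5 were at 2.59 CPM or less. The lowest iRGC level of Kdr was in replicate 2.

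Flt1 was at 17.9, 49.5 and 2.59 CPM in iRGCs and at 1.15, 0.552 and 0.161 CPM in cRGCs. The populations did not overlap, but iRGC replicate 2 stood 19.2-fold above iRGC replicate 3. The 82 reads of Flt1 in iRGC replicate 3 gave a 95% exact Poisson interval of 2.06 to 3.21 CPM, above that of cRGC replicate 1, 0.778 to 1.65 CPM from 30 reads. Such intervals cover counting error only. The log2 fold change over all libraries was 5.25 (SE 1.06), and 4.04 without iRGC replicate 2. Gene counts do not separate the soluble form of Flt1 from the membrane form.

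Tek was at 3.54, 10.1 and 0.158 CPM in iRGCs and at 0.154, 0.173 and 0 CPM in cRGCs. Only iRGC replicates 1 and 2 stood above the cRGC range, because the 5 reads of iRGC replicate 3 matched the 4 and 5 reads of cRGC replicates 1 and 2. Tek was not fitted, since it was too low in iRGC replicate 3 to pass the filter on low counts.

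Cdh5 was at 15.3, 81.3 and 0.158 CPM in iRGCs and had no read in any cRGC library. With the reads of each population pooled, its iRGC level was at least 936-fold above the 0.0349 CPM that 3 reads over the cRGC libraries would give. Only 5 reads of Cdh5 came from iRGC replicate 3, against 2630 in iRGC replicate 2 and 474 in iRGC replicate 1. The fold thus rests on iRGC replicates 1 and 2.

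Pecam1 was at 9.65, 53.0 and 0.284 CPM in iRGCs and at 0, 0.725 and 0 CPM in cRGCs. The 21 reads of cRGC replicate 2 put that library above iRGC replicate 3, so the populations overlapped. The iRGC mean was 86.9-fold above the cRGC mean, a ratio that rests on iRGC replicate 2 and on the reads of cRGC replicate 2. Over all libraries its log2 fold change was 6.41 (SE 1.78), and it was 4.33 without iRGC replicate 2, and without cRGC replicate 2 no cRGC read was left.

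Cd34 was at 22.0, 75.1 and 0.505 CPM in iRGCs and at 0.461, 0.138 and 0.194 CPM in cRGCs. The populations did not overlap, but iRGC replicate 3, with 16 reads, and cRGC replicate 1, with 12 reads, were close. Its log2 fold change was 6.95 (SE 1.52), and 5.403 without iRGC replicate 2.

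Adgrf5 was at 11.2, 50.8 and 0.378 CPM in iRGCs and had no read in any cRGC library. Its pooled iRGC level was at least 603-fold above that of 3 reads over the cRGC libraries. As for Cdh5, nearly all of its reads came from iRGC replicates 2 and 1, with 12 in iRGC replicate 3.

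Of the 10 genes, 8 were fitted and Tek and Cdh5 were not. By the same rule for a call, 5 of the 8 were called higher in iRGCs and none lower. Of all 15941 genes fitted, 23.3% were called higher and 23.1% lower, 46.4% in all. In 4 of the 8, every iRGC library was above every cRGC library, as in 27.1% of all genes fitted. The rule used this contrast, and genes absent from cRGCs could pass the filter only through their iRGC levels, so nothing is read from these counts.

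**Figure D2:**
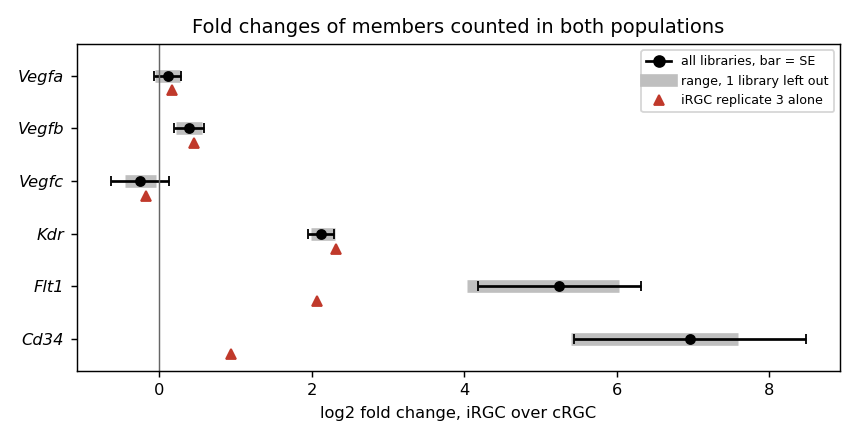
The horizontal axis gives the log2 fold change of iRGC over cRGC for 6 of the 10 genes. Black points are the values over all libraries with SE bars, grey bars the range when 1 library is left out, and red triangles the values of iRGC replicate 3 alone against the cRGC libraries. The triangle of Kdr lies at 2.32, close to its black point, while those of Flt1 (2.07) and Cd34 (0.94) lie far below theirs.

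In a fit of iRGC replicate 3 alone against the cRGC libraries, added after the data had been seen, Kdr had a log2 fold change of 2.32 (SE 0.19), with the lone library assumed to vary like the cRGC libraries. The values were 2.07 (SE 1.11) for Flt1, 0.94 (SE 1.98) for Cd34 and 0.24 (SE 2.95) for Pecam1. This fit restates the levels of that library.

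Per kilobase of exon, which allows genes to be compared, Kdr and Vegfa were the highest of the 10 genes in iRGCs. Kdr was at 40.5, 35.5 and 46.3 CPM per kilobase and Vegfa at 41.0, 36.7 and 40.7 CPM per kilobase, so their order could not be told apart. The iRGC mean of Kdr lay above that of 94.3% of the 15877 tested genes with a known length, and the Vegfa mean above 94.0%. Vegfb followed at 20.2 CPM per kilobase on average, below the lowest library of either. Next by mean came Cdh5 (7.67), Cd34 (4.47), Pecam1 (3.37), Adgrf5 (2.31), Vegfc (2.11), Flt1 (1.73) and Tek (0.979 CPM per kilobase), all with overlapping ranges. This order did not hold in iRGC replicate 3, where Vegfc (2.20) and Flt1 (0.19) lay above Cdh5 (0.0375 CPM per kilobase).

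In cRGCs the order was Vegfa, Vegfb, Kdr and Vegfc, at means of 36.7, 15.4, 9.39 and 2.51 CPM per kilobase. Kdr in cRGCs exceeded 65.2% of the tested genes. The cRGC libraries of Vegfb reached down to 11.6 and those of Kdr up to 11.4 CPM per kilobase, a gap smaller than the spread within either gene. The other 6 genes were each below 0.05 CPM per kilobase on average. The per-kilobase ratio of Kdr to Vegfa was 0.989, 0.968 and 1.14 in iRGCs and 0.206, 0.302 and 0.277 in cRGCs. The ratio of Kdr to Flt1 was instead uneven within iRGCs, at 30.7, 9.68 and 242, and was 109, 279 and 627 in cRGCs.

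All 6 endothelial genes were higher in iRGC replicate 2 than in replicate 1, by unequal factors. The ratio of replicate 2 to replicate 1 ran from 2.77 for Flt1 through 2.87 for Tek, 3.41 for Cd34, 4.55 for Adgrf5 and 5.33 for Cdh5 to 5.50 for Pecam1. The same ratio was 0.876 for Kdr, 0.895 for Vegfa, 0.865 for Vegfb and 1.83 for Vegfc. Over all tested genes the median ratio, with 0.5 CPM added to each level, was 1.05. Against iRGC replicate 3, and with the same addition, the median ratio of replicate 2 was 63.3 over the 6 genes and 0.971 over all tested genes.

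**Figure D3:**
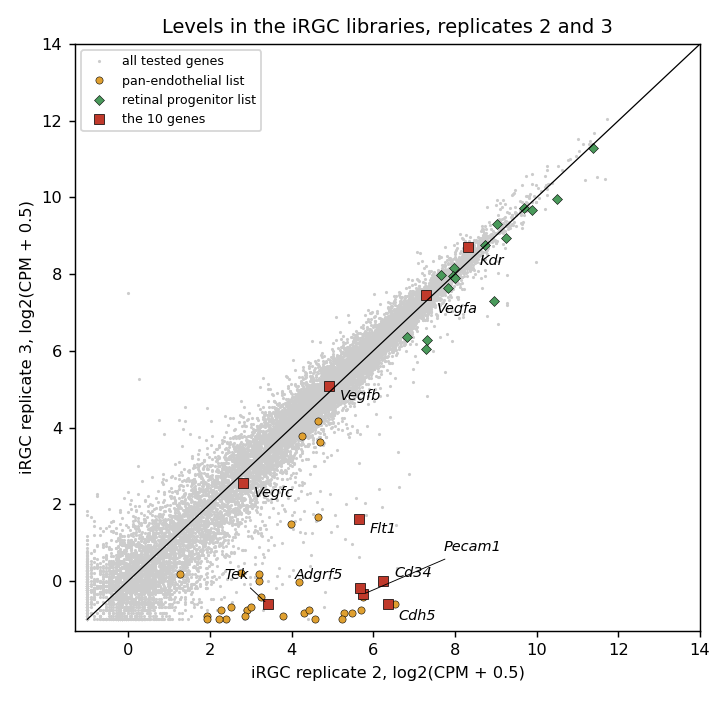
Each point is a gene, with log2(CPM + 0.5) in iRGC replicate 2 on the horizontal axis and in iRGC replicate 3 on the vertical axis. Kdr, Vegfa, Vegfb and Vegfc lie near the diagonal, as do most progenitor genes (green), whereas the other 6 genes (red) and most of the pan-endothelial list (yellow) lie far below it, Flt1 the least so of the 6.

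The pan-endothelial list held 30 further genes that mark endothelial cells in general. In 27 of them iRGC replicate 2 was the highest of the 6 libraries, against 16.3% of all tested genes, and in 20 the iRGC libraries ranked 2, 1, 3, against 10.7%. These shares cover genes that passed the filter on low counts, which 19 of the 30 did not, so the comparison is not like for like. The summed level was 162, 599 and 52.0 CPM in iRGCs and 56.1, 56.9 and 45.3 CPM in cRGCs, and over all 6 libraries Arhgef15, an exchange factor, had the highest mean, owing to its cRGC levels. In iRGC replicate 2 the highest of the list was Cd93, named after its values were seen, at 91.5 CPM. Of the 11 that were fitted, 8 were called higher and 1 lower, beside 23.3% and 23.1% of all genes, with a median log2 fold change of 3.38 against -0.0031 over all genes fitted. The other 19 were not fitted. Genes nearly absent from cRGCs could pass the filter only through their iRGC levels, so nothing is read from these calls or this median. Such genes also stand in the lists of other cell types below, to which the same limit applies. In iRGC replicate 3, 25 of the 30 were below 1 CPM. Without iRGC replicate 3, 26 were fitted and 23 called higher, and without iRGC replicate 2, 4 of 11 were called higher and 2 lower. Leaving out a cRGC library, which also lowers the number of libraries the filter asks for, gave 17, 19 or 16 higher for replicates 1, 2 and 3.

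Most pan-endothelial genes followed the 6 endothelial genes. Tie1, the orphan receptor that partners TEK, was at 2.70, 44.1 and 0.0631 CPM in iRGCs and had no read in cRGCs. Sox7, an endothelial transcription factor and the called gene with the largest fold change, was at 1.03, 6.34 and 0.662 CPM in iRGCs, with 1 read in all cRGC libraries together. Eng, also named after its values were seen, and Cd93 had 377 and 474 reads in iRGC replicate 1, 1718 and 2961 in replicate 2, 8 and 5 in replicate 3, and none in cRGCs.

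Some genes that mark endothelium did not follow them. S1pr1, the receptor of sphingosine 1-phosphate, was at 27.9, 24.6 and 17.6 CPM in iRGCs and 2.08, 2.59 and 3.03 CPM in cRGCs, and rose by 3.18 on the log2 scale (SE 0.28, adjusted p = 0.000205). Cldn5, a tight junction claudin, was at 26.0, 25.2 and 11.8 CPM in iRGCs and 0.884, 2.93 and 2.20 CPM in cRGCs (log2 fold change 3.38, SE 0.48, adjusted p = 0.000743). Like Kdr, both stayed above all cRGC libraries in iRGC replicate 3. In the fit of that library alone, chosen after the data had been seen and without iRGC replication, they had log2 fold changes of 2.78 and 2.56. Arhgef15 was lower in iRGCs, at 13.1, 18.7 and 13.2 CPM against 39.4, 37.3 and 30.6 CPM (log2 fold change -1.25, SE 0.20, adjusted p = 0.0013). Rasip1, a regulator of vessel lumen formation, was at 1.90, 15.2 and 2.30 CPM in iRGCs and 8.88, 10.2 and 5.33 CPM in cRGCs and did not pass the test (adjusted p = 0.765). Of its exon bases 42.9% are shared with other genes, Izumo1 among them, so its level is uncertain.

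The proportions also differed between iRGC replicates 1 and 2 for single genes. Emcn and Sox18, named after their values were seen, had 676 and 219 reads in iRGC replicate 2 and none in replicate 1, where Cdh5 had 474. iRGC replicate 1 had reads on 16564 genes, the fewest of all libraries, against 19323 in replicate 2 and 20283 in replicate 3. The part of this in the endothelial values was not tested.

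The remaining ligands and receptors of the VEGF and angiopoietin axis were mixed. Of 10 genes 7 were fitted, 3 were called higher in iRGCs and 2 lower, beside 23.3% and 23.1% of all genes, and the median log2 fold change was 0.78. Without iRGC replicate 2 only 1 was called higher and 1 lower.

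Nrp1, a co-receptor of VEGF-A and of class 3 semaphorins, was the most abundant of the list. It was at 66.1, 88.2 and 61.6 CPM in iRGCs and 234, 181 and 241 CPM in cRGCs, without overlap, and fell by 1.60 on the log2 scale (SE 0.17, adjusted p = 0.000245). Nrp2, its relative, was at 16.2, 24.1 and 33.1 CPM in iRGCs and 46.9, 45.6 and 31.1 CPM in cRGCs. It was called lower (log2 fold change -0.75, SE 0.27, adjusted p = 0.0528), although iRGC replicate 3 lay above cRGC replicate 3. The paper, in contrast, names Nrp2 as potentially enriched in iRGCs. Its evidence includes Zic2 bound at the Nrp2 promoter and Nrp2 mRNA together with Zic2 in the ventral retina. It also includes a rise of Nrp2 mRNA in cRGCs given ectopic Zic2. The bulk levels here do not address that evidence. The call of Nrp2 as lower was lost without iRGC replicate 1 or 2 or cRGC replicate 1 or 2 (adjusted p = 0.119, 0.130, 0.139 and 0.132). iRGC replicate 3 alone gave a log2 fold change of -0.30 (SE 0.26). Kdr and its co-receptor Nrp1 thus differed between the populations in opposite directions.

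Flt4, the VEGF-C receptor of lymphatic endothelium, was at 1.77, 27.7 and 0.315 CPM in iRGCs and 0.346, 0.311 and 0.452 CPM in cRGCs. It was called higher (log2 fold change 4.73, SE 1.41, adjusted p = 0.0263) although iRGC replicate 3 lay among the cRGC values. Pdgfb, with which endothelial cells recruit pericytes, was at 1.90, 18.9 and 1.51 CPM against 0.269, 0.345 and 0.323 CPM, without overlap (log2 fold change 4.55, SE 1.06, adjusted p = 0.00824). Both peaked in iRGC replicate 2, as the 6 endothelial genes did, and neither was called without that library (adjusted p = 0.424 for Flt4 and 0.111 for Pdgfb) or in limma voom (adjusted p = 0.401 and 0.196). In the fit of iRGC replicate 3 alone Flt4 had a log2 fold change of -0.21 and Pdgfb of 2.27, and neither passed the test (adjusted p = 0.955 and 0.257).

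Angpt1, the activating ligand of TEK, was at 16.2, 3.59 and 17.4 CPM in iRGCs and 3.42, 4.18 and 2.42 CPM in cRGCs. It was thus high in iRGC replicates 1 and 3 and at the cRGC level in replicate 2 (log2 fold change 1.89, SE 0.55, adjusted p = 0.0237). Tek was instead highest in iRGC replicate 2 and at the cRGC level in replicate 3, and both genes were above cRGCs in replicate 1. In limma voom Angpt1 was not called (adjusted p = 0.113). Of its exon bases 14.2% overlap an antisense gene, Gm17473, and strand use in counting is not given in the sources used here. Angpt2, the context-dependent ligand of TEK, was at 2.70, 5.32 and 6.56 CPM against 4.42, 1.90 and 2.26 CPM (adjusted p = 0.287). Pgf, a ligand of FLT1, was at 1.38, 3.46 and 2.90 CPM against 2.69, 1.31 and 0.516 CPM (adjusted p = 0.461). Vegfd had between 0 and 14 reads per library, and Angpt4 had none in any.

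**Figure D4:**
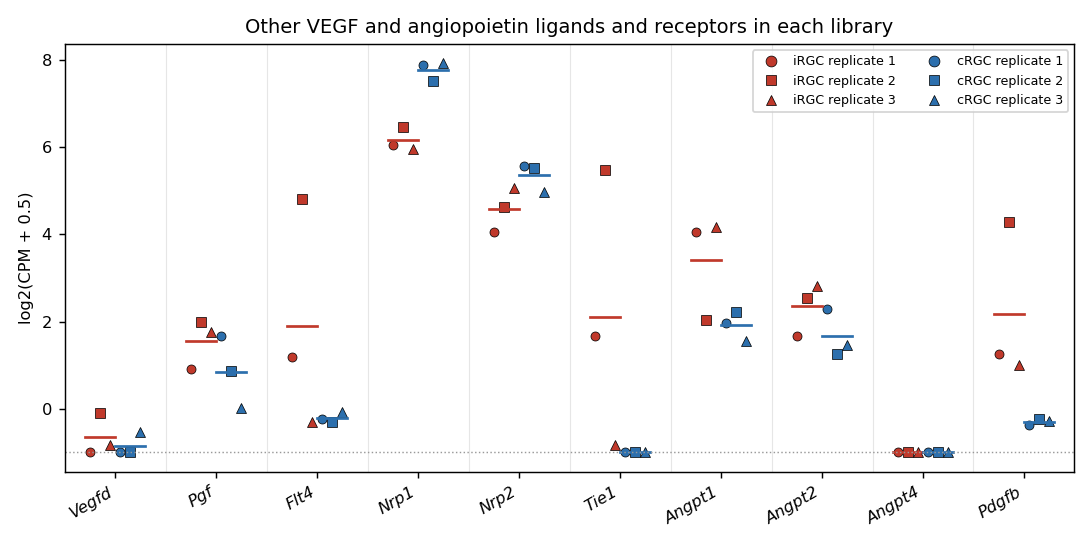
The vertical axis gives log2(CPM + 0.5) of the 10 other ligands and receptors of the axis, 1 point per library, with population means as lines and 0 CPM dotted. Flt4, Tie1 and Pdgfb have a single high point in iRGC replicate 2, Nrp1 has all cRGC points above the iRGC points, and Angpt1 has iRGC replicate 2 among the cRGC points.

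Downstream components of VEGF receptor signalling were called in both directions, more often lower in iRGCs. Of 31 genes fitted out of 32, 4 were called higher and 14 lower, with a median log2 fold change of -0.16. The 18 calls stand beside 46.4% called among all genes, and the calls in 1 direction beside 23.3% higher and 23.1% lower. Akt1, a survival kinase and the most abundant by the mean over all libraries, fell by 0.65 on the log2 scale (SE 0.10, adjusted p = 0.00136), Fyn, a Src family kinase, by 0.81 (SE 0.13, adjusted p = 0.00147), Plcg1, the phospholipase that binds the activated KDR receptor, by 0.45 (SE 0.11, adjusted p = 0.0106), and the small GTPase gene Cdc42 by 0.35 (SE 0.12, adjusted p = 0.041). Pik3r1, a regulatory subunit of PI3 kinase named after its values were seen, was at 352, 275 and 328 CPM in iRGCs and rose by 1.44 (SE 0.14, adjusted p = 0.000207). These genes serve many receptors. Ptprb, the endothelial phosphatase that acts on TEK, had the largest fold change of the list and is also in the pan-endothelial list. It was at 4.66, 17.5 and 0.473 CPM in iRGCs and 1.77, 0.104 and 0.258 CPM in cRGCs (log2 fold change 3.42, SE 1.31, adjusted p = 0.068).

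Vegfa is a textbook target of the hypoxia-inducible factors (HIF), and 26 oxygen sensing and HIF target genes were read beside it. All were fitted, 10 were called higher in iRGCs and 4 lower, and the median log2 fold change was 0.25. The shares over all genes were 23.3% higher and 23.1% lower. Slc2a1, the glucose transporter GLUT1, was at 573, 574 and 541 CPM in iRGCs and 94.3, 161 and 107 CPM in cRGCs, and rose by 2.22 (SE 0.19, adjusted p = 0.000205). Ldha, lactate dehydrogenase A, rose by 0.66 (SE 0.16, adjusted p = 0.0115), Kdm3a, a histone demethylase, by 0.46 (SE 0.15, adjusted p = 0.0386) and Hif1a, the oxygen-regulated subunit, by 0.25 (SE 0.09, adjusted p = 0.0596). Epas1, which encodes HIF-2alpha and is high in endothelium, was at 16.2, 56.5 and 2.78 CPM in iRGCs and 0.192, 2.11 and 0.613 CPM in cRGCs (log2 fold change 4.68, SE 1.12, adjusted p = 0.00956). Of these 5 HIF genes, Epas1 alone varied several-fold among the iRGC libraries, in the order of the endothelial genes. The 4 called lower, named after their values were seen, were Ankrd37 (log2 fold change -1.05), Pfkfb3 (-0.90), Pfkfb4 (-0.82) and Egln2 (-0.46). Another 12 of the 26 were not called, so the list as a whole did not move in 1 direction.

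Genes of mural cells, the pericytes and smooth muscle cells that wrap vessels, were called higher in 7 of the 11 fitted out of 17 and lower in none, beside 23.3% and 23.1% of all genes, with a median log2 fold change of 2.54. Their sum was 207, 371 and 230 CPM in iRGCs and 33.6, 56.1 and 32.5 CPM in cRGCs, and 12 of the 17 were highest in iRGC replicate 2. Rgs5, a pericyte gene, was at 3.76, 93.8 and 2.24 CPM in iRGCs and 0.0769, 0.0345 and 0.323 CPM in cRGCs (log2 fold change 7.76, SE 1.72, adjusted p = 0.00659). Its level in iRGC replicate 2 was 24.9-fold that in replicate 1, a wider gap than for any of the 6 endothelial genes.
Notch3, a receptor of mural cells and of neural progenitors, made up the largest part of the sum and was even across iRGC libraries, at 113, 117 and 83.5 CPM against 17.1, 26.7 and 18.6 CPM (log2 fold change 2.33, SE 0.21, adjusted p = 0.000205). Mcam, an adhesion molecule of vessel walls, was at 25.4, 57.9 and 27.8 CPM against 5.23, 4.52 and 1.45 CPM (adjusted p = 0.000976). Ndufa4l2, a mitochondrial protein of pericytes, was at 39.1, 22.0 and 76.2 CPM against 5.42, 16.8 and 6.04 CPM (adjusted p = 0.00923).

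**Figure D5:**
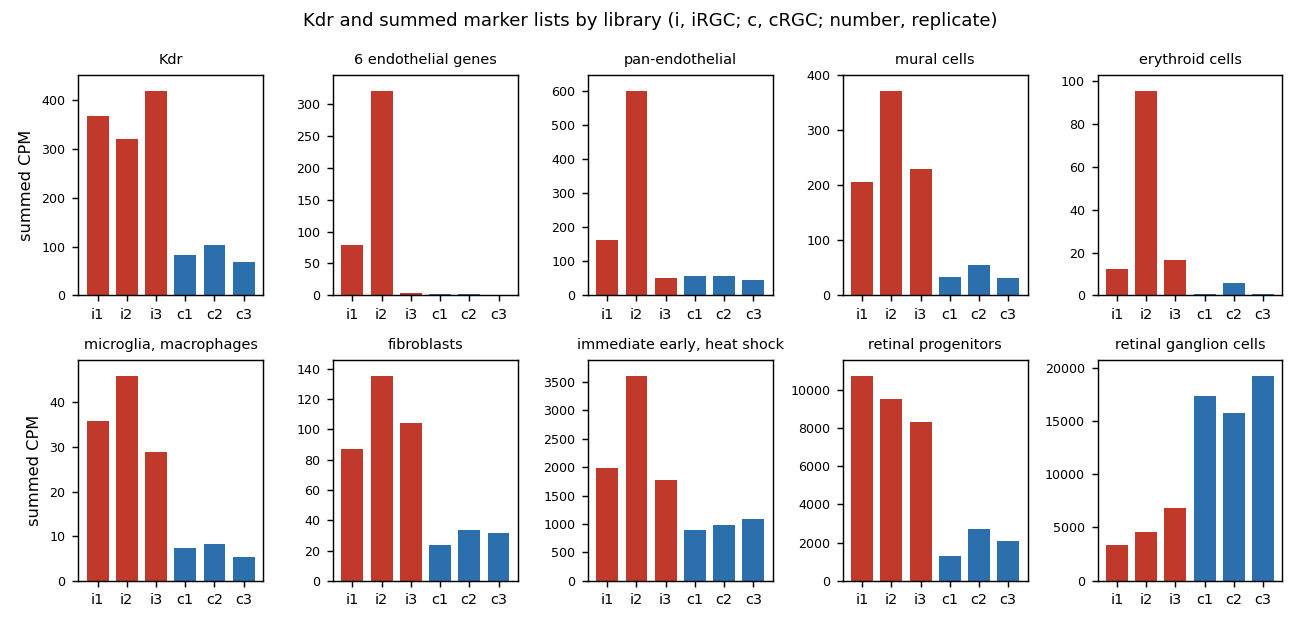
Bars give the level of Kdr and the summed CPM of 9 gene groups in each library, on axes that start at 0 and differ between panels. The 6 endothelial genes sum to 79.5, 320 and 4.07 CPM in iRGC replicates 1 to 3, erythroid and mural genes also peak in replicate 2, and the bars of Kdr and of the retinal progenitor genes are tall in all 3 iRGC libraries.

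The summed level of red blood cell genes was also highest in iRGC replicate 2. Singly, 6 of the 11 were highest there, beside 16.3% of all tested genes, and 4 had no read there. The 11 erythroid genes summed to 12.2, 95.5 and 16.49 CPM in iRGCs and 0.807, 5.69 and 0.549 CPM in cRGCs, and of 6 fitted 4 were called higher, beside 23.3% of all genes. Hbb-bs, a beta globin, was the most abundant, at 7.94, 50.04 and 7.88 CPM in iRGCs. The globin genes are near-identical copies, so their single values are uncertain. Immediate early and heat shock genes, which respond to tissue dissociation among other stimuli, summed to 1981, 3602 and 1772 CPM in iRGCs and 887, 975 and 1088 CPM in cRGCs, with Fos at 447, 1016 and 320 CPM against 110, 163 and 156 CPM. The part of these groups in the endothelial values was not tested.

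Genes with profiles like those of the ligands were ranked by Pearson correlation of log2(CPM + 0.5) over the 6 libraries. The ranking took in 11534 fitted genes with a mean of at least 5 CPM, and only genes outside all lists were named. The 6 points share library depth and composition, and the correlations are descriptions. Closest to Vegfa were Zfp148 (r = 0.963), Mrm3 (0.962), Gapdh (0.959), Snhg8 (0.9502) and Rora (0.949). Gapdh has many near-identical copies, and its count is uncertain. Closest to Vegfb were Qdpr (r = 0.996), Hs2st1 (0.985), Med16 (0.984), C1qtnf12 (0.981) and Atl2 (0.979). Closest to the mean of the 7 receptor and surface genes were N4bp3 (r = 0.994), Upf1 (0.991), Amotl1 (0.989), Tdg (0.988) and Gm5577 (0.987).

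Since the profile of Kdr differed from that of the other 6 endothelial genes, both were also ranked alone, a step added after the values were seen. With the 16 retinal progenitor genes the median r was 0.947 for Kdr and 0.737 for the mean of the 6. Kdr and most of these 16 genes were higher in iRGCs, so a high r was given in advance by the population difference. The source of the Kdr reads was not tested. Within iRGCs, Kdr was highest in replicate 3, where the summed progenitor level was lowest. With the 5 fitted pan-endothelial genes of at least 5 CPM the median r was 0.495 for Kdr and 0.786 for the mean of the 6. These 5 included Arhgef15, S1pr1, Cldn5 and Rasip1, which did not follow the endothelial genes, so the medians do not stand for the whole list. Outside the lists, the genes closest to Kdr included Rrp9 (r = 0.9995), Pbxip1 (0.999), Cep57 (0.999) and Tra2b (0.998). Rrp9 varied far less than Kdr, with a log2 fold change of 0.36. Pbxip1 was at 36.7, 29.9 and 42.4 CPM in iRGCs and 7.27, 8.46 and 5.45 CPM in cRGCs, and its log2 fold change was 2.36.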

How the data were processed

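GFP-positive cells were sorted by flow cytometry, and polyA RNA was sequenced as 50-base reads. Per the labels and the study's methods, the authors aligned reads to mm10 with HISAT2 2.1.0 and counted them on Ensembl genes with HTSeq 0.11.1. The deposited values are raw counts per gene in 1 file per library. The 13 ATAC-seq samples were not analysed here. Genes were named and their exon lengths and overlaps taken from the GENCODE annotation of GRCm38, the assembly of mm10, and promoter windows from RefSeq (GRCm38.p6).

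Counts were fitted with edgeR 4.0.16 (R 4.3.3): filterByExpr, TMM factors, the quasi-likelihood test of iRGC against cRGC, and Benjamini-Hochberg adjustment over all 15941 genes fitted, with a call at an adjusted p under 0.1. SEs were derived from the F statistic and the size of the log2 fold change. The biological coefficient of variation was 36.3%. The filter asks for a minimum count in 3 libraries, so genes high in only 2 were not fitted. Folds against a gene with no cRGC read used 3 counts over the group. The labels call the samples biological replicates. The fits were tested on simulated counts.

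The members, the 19 gene lists, 4 of whose genes (Tie1, Ptprb, Gja4 and Pdgfra) stand in 2 lists each, and the patterns were chosen with earlier results of these data known. Names were taken from the 4 fitted genes of each list with the highest mean CPM and the called gene with the largest fold change, of which some lists show only a few, from all genes of the VEGF and angiopoietin list, and from 5 genes per pattern. Other names are stated as chosen after their values were seen. Some genes are not reported here by name. Alternatives were other scalings, DESeq2 1.42.0, limma voom 3.58.1, other filters and thresholds, a replicate block, and leaving out each library.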

Additional observations from a re-analysis of the deposited data

How the results depend on the processing

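The count of all genes called stayed between 6303 and 7790 of the main 7395 under other scalings, tools and filters and with 1 library left out, was 6751 with a replicate block, and was 3688 when the absolute log2 fold change also had to exceed 1. Libraries of the 2 populations share replicate numbers, but same-numbered libraries did not deviate together (r = -0.014, -0.045 and -0.067), so they were not treated as pairs. The block left 4 of the 5 calls of the VEGF and angiopoietin list, Flt4 being lost (log2 fold change 2.75, adjusted p = 0.1905). By number alone, it gave 5 pan-endothelial calls (9 without it), 8 mural calls (7 without it) and 14 HIF calls (14 without it). In the VEGF and angiopoietin list, limma voom called 2 (Nrp1 and Nrp2), a minimum of 10 counts in every library 3, and leaving out 1 library 2 to 6. In the pan-endothelial list these counts were 4, 4 and 6 to 24, and 26 of 30 genes were called with no filter on low counts. Without that filter 11 mural genes were called, and 6 to 10 with 1 library left out. With an absolute log2 fold change above 1, 6 HIF genes were called, and 11 to 15 with 1 library left out. iRGC replicate 3 alone was an alternative chosen after seeing the data, and its calls are not counted, since it has no iRGC replication. The log2 fold change of Vegfa ran from -0.061 without cRGC replicate 3 to 0.27 without cRGC replicate 1. The log2 fold change of Pecam1 ran from 4.33 without iRGC replicate 2 to 12.34 without cRGC replicate 2, outside which the gene has no cRGC reads. That of Adgrf5, which has none at all, was 8.45 in limma voom, and depends on the prior count. With iRGC replicate 3 alone Flt1 was at 2.07, Cd34 at 0.94 and Pecam1 at 0.24. Of 107 alternative values of the members' fold changes, 101 were counted as unchanged, 5 as moved and 1 as changed in sign. The limit for a move was wider than the SE. Some values counted as unchanged lay further than the SE from the main value, among them those of Flt1, Pecam1 and Cd34 without iRGC replicate 2. Depth limits the values of iRGC replicate 3 and the cRGC libraries, where 3 reads are worth about 0.1 CPM.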

Other observations

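Genes of endothelial subtypes were mixed. The counts of calls given here for this and the other lists stand beside 23.3% of all fitted genes called higher in iRGCs and 23.1% called lower. Of 18 tip, arterial, venous and lymphatic genes, 13 were fitted, 9 were called higher in iRGCs and 1 lower, with a median log2 fold change of 2.22. The most abundant are also used by neural cells. Efnb2, an ephrin of arterial endothelium, was at 233, 287 and 217 CPM in iRGCs and 91.0, 105 and 124 CPM in cRGCs. Plxnd1, a semaphorin receptor of vessels and neurons, was at 87.5, 175 and 63.6 CPM against 12.03, 24.8 and 15.6 CPM. Lyve1, a hyaluronan receptor of lymphatic endothelium and some macrophages, was at 8.78, 6.71 and 0.662 CPM against 0.0384, 0.138 and 0.290 CPM. Unlike the 6 endothelial genes it was highest in iRGC replicate 1. Of 15 barrier endothelial genes, 11 were fitted, 7 were called higher and 1 lower, with a median of 1.36. Abcb1a, the P-glycoprotein of the blood-brain barrier, was at 2.25, 4.82 and 0.536 CPM in iRGCs and had no read in cRGCs. Of its exon bases 10.1% overlap an antisense gene, Gm42686. Spock2, a proteoglycan also made by neurons, was lower, at 162, 183 and 231 CPM against 643, 615 and 497 CPM.

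Markers of other cells varied in how far they were tied to 1 iRGC library. The 14 genes of microglia and macrophages summed to 35.9, 45.8 and 29.0 CPM in iRGCs and 7.27, 8.35 and 5.33 CPM in cRGCs, with 7 of 11 fitted called higher and none lower. Cd68, a lysosomal protein of macrophages, was the most abundant gene of this list. Csf1r, the receptor that microglia depend on, was at 7.66, 8.50 and 5.64 CPM against 0, 1.24 and 0.161 CPM, and shares 15.1% of its exon bases with Hmgxb3. The 12 fibroblast genes summed to 86.9, 135 and 104 CPM against 23.5, 33.9 and 31.7 CPM, with 3 of 6 fitted called higher and none lower. Most of the sum came from Fbln1, a matrix protein, at 45.3, 67.9 and 58.2 CPM in iRGCs, and Foxd1, also a transcription factor of the ventrotemporal retina, at 23.9, 27.9 and 35.7 CPM. Among genes named after their values were seen, Lum had no read, Dcn and Twist1 had reads only in iRGC replicate 3 (5 and 6), and Col1a1 was not called (adjusted p = 0.748). Foxc1 and Col3a1, named in the same way, were at 9.24 and 6.74 CPM in iRGC replicate 2, at 0 in iRGC replicate 1, and at 0.473 and 0 CPM in iRGC replicate 3. The 8 lens genes summed to 0.868, 10.9 and 1.77 CPM in iRGCs and at most 0.387 CPM in cRGCs. Crybb1, a beta crystallin and the lens gene fitted, was at 0.868, 0.773 and 0.378 CPM in iRGCs and did not pass the test (adjusted p = 0.196). Cryaa, the lens alpha crystallin, named after its values were seen, was at 4.92 CPM in iRGC replicate 2 and 0 in every other library. Of 8 platelet genes 2 were fitted, and Gp1bb was called lower, but 92.9% of its exon bases are shared with Sept5 and another gene, so it is not read as a platelet marker. Of 10 pigment epithelium genes 6 were fitted and 1, Rlbp1, was called higher. Of 7 optic stalk and astrocyte genes 3 were fitted, with Slc1a3, a glutamate transporter shared with retinal progenitors, called higher and Aldh1l1, with 13.4% of its exon bases shared, called lower.

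Many genes of other retinal neurons were higher in iRGCs. Of 7 photoreceptor precursor genes fitted, 6 were called higher and 1 lower, and Otx2, their early transcription factor, was at 269, 213 and 221 CPM against 30.9, 68.9 and 36.1 CPM. Of 10 amacrine and horizontal cell genes, 6 were called higher and none lower, and Ptf1a, which directs these fates and shares 40.4% of its exon bases with an antisense gene, was at 29.5, 23.2 and 21.7 CPM against 3.08, 6.28 and 4.87 CPM. Immediate early and heat shock genes were called higher in 8 of 12 and lower in none.

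The mean profile of the 6 endothelial genes without Kdr was ranked after the values were seen. Its 5 closest genes were N4bp3 (r = 0.9891), Gm5577 (0.9888), Col15a1 (0.9875), Tdg (0.9861) and Igfbp7 (0.9858). Col15a1 encodes a basement membrane collagen and Igfbp7 a secreted binding protein of vessel walls. Col15a1 was at 18.0, 95.1 and 0.757 CPM in iRGCs and 0.730, 1.62 and 0.323 CPM in cRGCs. Igfbp7 was at 10.4, 29.8 and 0.536 CPM against 0, 0.621 and 0.290 CPM.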
